A study of Mus musculus with 44 samples.

Results

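Chromatin accessibility was compared between whole late morulae and early inner cell masses (ICMs) of control mouse embryos of the *Pou5f1* line, *Pou5f1* being the gene that encodes Oct4. The comparison took in 7 of the 44 ATAC-seq libraries of the series, chosen by their labels, and all 152393 peaks of the deposited table. The 3 late morula libraries (Oct4_Ctrl_LateMorula) held whole compacted embryos recovered at E3.25. The 4 early ICM libraries (Oct4_Ctrl_EarlyICM, E3.75) came from embryos recovered at E2.5, cultured in KSOM with 1 µM of the MEK inhibitor PD0325901 until the early blastocyst stage, and stripped of their outer cells by immunosurgery. Each library pooled 20 to 40 morulae or ICMs from superovulated females, and the labels give the strain as B6C3F1.

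The embryos called controls were maternal knockouts. Their mothers were *Pou5f1* flox/flox; *Zp3*-Cre, so that Cre, driven by an oocyte promoter, removed the maternal allele, while the *Pou5f1* +/mKO2 fathers passed on an intact allele to the unlabeled embryos used here. Both groups therefore lacked maternal Oct4 and carried 1 working *Pou5f1* allele. Stage, culture, MEK inhibition and removal of the outer cells all differed between the 2 groups and cannot be told apart. In pooled embryos, a site that is open in fewer cells and a site that is less open in each cell cannot be told apart either. The paper's methods call the replicates biological, but the labels do not say whether they were separate collections. The p-values therefore measure only a spread between pooled libraries, which may be partly technical. That spread was estimated over all 44 libraries of 12 groups.

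In the compacted morula, outer cells become polarized and form the trophectoderm, the future placenta, whereas inner cells form the ICM. In outer cells the Hippo pathway is off and Yap1 with the TEAD factors turns on trophectoderm genes such as *Cdx2* and *Gata3*. The ICM gives rise to the epiblast, which keeps the pluripotency factors Oct4, Sox2 and Nanog, and to the primitive endoderm, whose formation depends on FGF4 and ERK signalling and is blocked by a MEK inhibitor. ATAC-seq reads out open chromatin through the cuts of the Tn5 transposase, and pluripotency enhancers often carry a composite OCT-SOX site that Oct4 and Sox2 bind as a pair.

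Values are rlog, a shrunken log2 scale of Tn5 insertion counts in 200 bp windows computed by the authors over all libraries. A difference of 1 is thus about a doubling, and is smaller than the true change where counts are low. A peak is called higher or lower when the early ICM minus late morula difference had an adjusted p under 0.05 (limma, Benjamini-Hochberg over all peaks). Each window's sequence was also searched on both strands for 13 short words that stand for factor families. They were ATTGT, 1 free base and ATGCAAAT with up to 2 mismatches for OCT-SOX, and, without mismatch, ATGCAAAT for OCT, CCATTGT for SOX, ACATTCC for TEAD, AGATAAG for GATA, GCCNNNGGC for AP-2 and GGGNGTGG for KLF. The others were CAAGGTCA for ESRRB, TGANTCA for AP-1, AGGTGTGA for T-box, CCGGAAG for ETS, GGATTAA for OBOX, and for CTCF the letters CCA, 2 free bases, AG, 2 free bases, GGC, a free base and C. The OCT and OCT-SOX words overlap, and a word in a window is a description, not a bound site.

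These windows show the kinds of sequence that the comparison turned on, as the plus strand of GRCm38 (mm10), with letters of any of the searched words in capitals. The first 4 rose and hold an OCT-SOX word. They are the *Utf1* enhancer (chr7:139945620-139945819), the *Sox2* SRR2 enhancer (chr3:34653965-34654164), and windows upstream of *Il6st* (chr13:112462545-112462744) and *Spred2* (chr11:19918043-19918242). *Hnf4a* (chr2:163525867-163526066) rose with SOX, TEAD and GATA words, and *Lifr* (chr15:7081941-7082140) rose by one of the largest amounts with none of them. *Krt8* (chr15:101995875-101996074) and *Cacna1b* (chr2:24626609-24626808) fell and hold none, and *Ncan* (chr8:70105557-70105756) fell with KLF and OBOX words in a window masked almost whole as repeats.
Utf1: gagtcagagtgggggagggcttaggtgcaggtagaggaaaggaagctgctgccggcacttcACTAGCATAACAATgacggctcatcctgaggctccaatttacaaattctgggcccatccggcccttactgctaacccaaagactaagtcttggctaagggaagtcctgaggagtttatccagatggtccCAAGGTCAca
Sox2 SRR2: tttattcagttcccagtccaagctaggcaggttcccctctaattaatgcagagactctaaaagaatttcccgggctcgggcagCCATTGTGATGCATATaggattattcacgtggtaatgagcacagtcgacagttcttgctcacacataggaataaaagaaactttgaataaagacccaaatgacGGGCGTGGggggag
Il6st: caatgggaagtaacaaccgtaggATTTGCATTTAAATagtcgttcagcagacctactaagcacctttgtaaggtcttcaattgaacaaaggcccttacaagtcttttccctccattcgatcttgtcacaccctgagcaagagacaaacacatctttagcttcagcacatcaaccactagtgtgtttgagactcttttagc
Spred2: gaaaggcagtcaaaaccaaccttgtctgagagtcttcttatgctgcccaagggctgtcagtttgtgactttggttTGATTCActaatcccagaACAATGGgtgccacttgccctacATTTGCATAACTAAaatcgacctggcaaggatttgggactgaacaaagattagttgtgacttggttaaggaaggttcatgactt
Hnf4a: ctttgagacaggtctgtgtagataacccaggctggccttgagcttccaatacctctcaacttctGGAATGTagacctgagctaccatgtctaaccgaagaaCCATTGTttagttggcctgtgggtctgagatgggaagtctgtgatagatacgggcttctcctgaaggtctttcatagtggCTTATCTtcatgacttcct
Lifr: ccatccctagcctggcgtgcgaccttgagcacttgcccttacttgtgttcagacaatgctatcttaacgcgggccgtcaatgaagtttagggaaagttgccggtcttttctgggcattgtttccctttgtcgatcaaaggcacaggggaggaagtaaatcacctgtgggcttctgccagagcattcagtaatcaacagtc
Krt8: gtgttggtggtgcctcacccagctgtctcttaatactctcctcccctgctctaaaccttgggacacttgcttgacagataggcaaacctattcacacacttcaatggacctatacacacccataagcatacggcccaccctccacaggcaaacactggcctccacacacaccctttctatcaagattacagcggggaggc
Cacna1b: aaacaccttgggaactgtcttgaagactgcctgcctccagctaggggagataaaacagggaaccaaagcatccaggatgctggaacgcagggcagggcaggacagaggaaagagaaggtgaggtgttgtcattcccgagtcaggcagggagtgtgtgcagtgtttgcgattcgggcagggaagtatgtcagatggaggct
Ncan: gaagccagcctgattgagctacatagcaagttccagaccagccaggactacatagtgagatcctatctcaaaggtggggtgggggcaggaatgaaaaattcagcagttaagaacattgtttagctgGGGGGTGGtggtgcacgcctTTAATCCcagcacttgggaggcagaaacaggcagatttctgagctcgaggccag

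The 7 libraries fell into their 2 labelled groups. Across all peaks, Pearson's r between libraries was 0.866 to 0.879 within late morula, 0.838 to 0.871 within early ICM, and 0.607 to 0.703 between the groups. The 2 mean profiles lay 2.23 times as far apart as a library lay, on root mean square, from the mean profile of its group, the largest ratio of all 35 divisions into 3 and 4 (exact permutation test, one-sided, p = 0.029, the smallest that 35 divisions allow). Library medians lay between 2.52 and 2.61, and no pair of libraries held identical values. The deposited table has no counts, so the depth of a library is unknown.

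Between late morula and early ICM, 22384 peaks rose (14.7% of all peaks) and 22839 fell (15.0% of all peaks). The balance of rises and falls depends on the scaling of the rlog values, which sets the centre of the differences, and centring within GC bins gave 24123 and 19892. The median difference was 1.57 among the peaks that rose, from a median of 1.74 in late morula to 3.59 in early ICM. Among those that fell it was -1.52, from 3.27 to 1.58. The median over all peaks was -0.04. Of the peaks that rose, 5472 differed by at least 2 and 625 by at least 3, against 3640 and 121 of those that fell. The largest differences were 4.64 and -4.15. In 19095 of the risen peaks and 19905 of the fallen ones the libraries of the groups did not overlap, while over all peaks this was so for 16.9% upward and 18.7% downward.

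**Figure D1:**
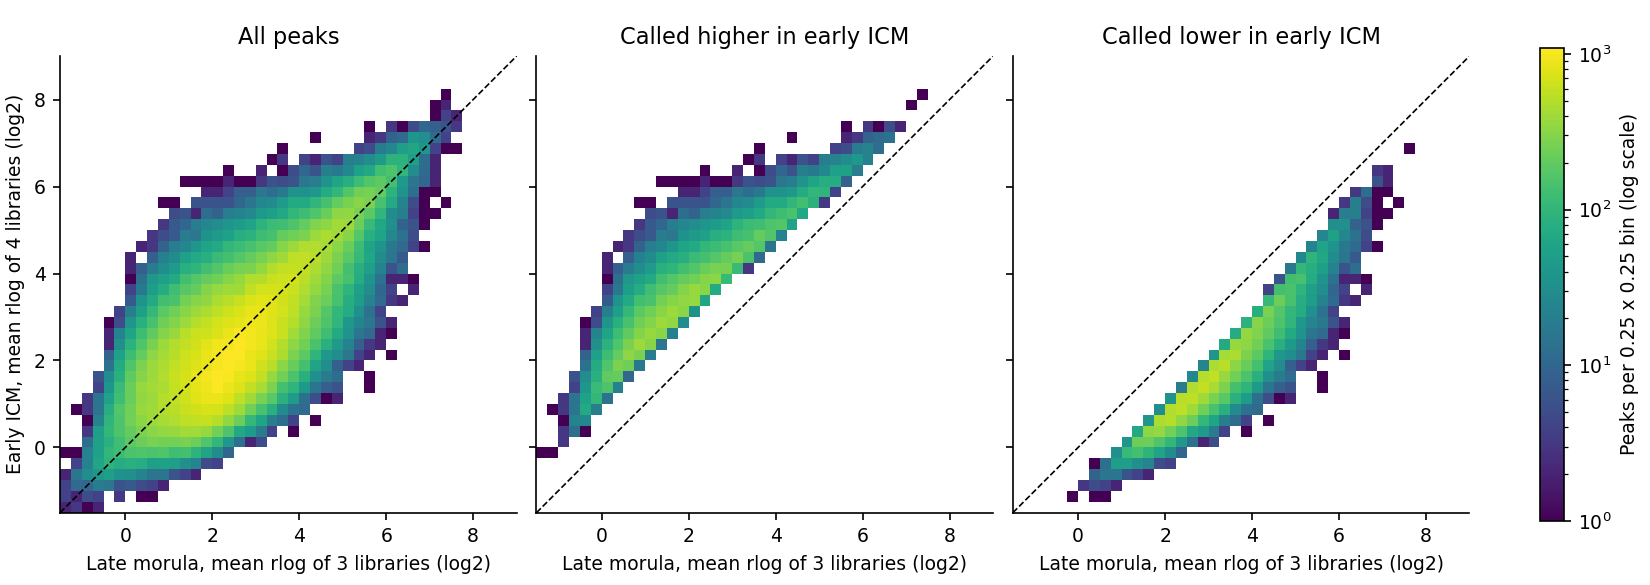
Mean rlog accessibility (log2) of each peak in the 3 late morula libraries (horizontal) and the 4 early ICM libraries (vertical), as numbers of peaks per bin on a log color scale, for all 152393 peaks and for those called higher or lower. The 22384 higher peaks lie above the dashed line of equality and reach farther from it than the 22839 lower ones, with largest differences of 4.64 and -4.15.

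Peaks at start sites changed less often than peaks elsewhere. Of the 16171 peaks with an annotated start site inside them or within 100 bp, 10.4% rose and 4.65% fell, against 15.2% and 16.2% of the 136222 peaks farther away. Peaks that rose were intergenic more often (54.5%) than all peaks (48.7%), and those that fell were intronic more often (48.2% against 42.9%). No chromosome stood apart, with 12.9% (chromosome 19) to 16.6% (chromosome 10) of peaks higher and 13.6% (chromosome 11) to 17.6% (chromosome 18) lower. The share called moved with level. Of the 38099 peaks with the lowest mean rlog 10.3% rose and 18.5% fell, and of the 38098 with the highest 19.0% rose and 10.6% fell.

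Windows with an OCT-SOX word opened far more often than others. Of the 1928 such peaks, 959 rose (49.7%, against 14.7% of all peaks) and 79 fell (4.10%), with a median difference of 1.10. The word was in 4.28% of risen, 0.830% of uncalled and 0.346% of fallen peaks, and in 1.27% of all. Among the 959, the median late morula level was 1.21, below the 1.77 of the risen peaks without the word. The ESRRB word, recognised by the orphan receptors Esrrb and Nr5a2, was in 12.9% of risen and 2.43% of fallen peaks (5.95% of all), and the SOX word in 7.53% and 2.57% (4.0% of all). In windows without an OCT-SOX word, the SOX word was still in 7.41% of risen and 2.56% of fallen peaks, while the OCT word was in 2.77% and 1.99%.

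Other words were more frequent among sites that closed. The T-box word, bound by Eomes and its relatives, was in 5.59% of fallen, 1.14% of risen and 2.62% of all peaks. The KLF word was in 28.9% of fallen and 14.8% of risen peaks, and the OBOX word, recognised by Obox and Otx homeodomain factors, in 9.90% and 3.58%. A large part of these words lay in repeats. Windows with at least 50% of their bases masked as repeats in the reference made up 31.7% of fallen, 21.7% of risen and 23.2% of all peaks. Outside masked bases, the KLF word was in 9.54% of fallen, 8.41% of risen and 9.66% of all peaks, and the OBOX word in 1.19%, 1.18% and 1.12%. Fallen windows also have fewer unmasked bases in which a word can lie. In windows with under 50% of their bases masked, where words were counted at any base, the KLF word was in 20.0% of fallen, 14.4% of risen and 16.9% of all peaks, and the OBOX word in 4.89%, 2.36% and 3.22%, so there the differences remained. Counted outside masked bases, the OCT-SOX word (2.70% of risen, 0.245% of fallen), the ESRRB word (6.56%, 0.972%), the SOX word (4.60%, 1.24%) and the T-box word (0.782%, 1.61%) kept their direction.

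Windows with the CTCF word, whose sites mark the anchors of chromatin loops, were called least often among the words searched. Of the 2572 such windows 2.22% rose and 9.21% fell, against 14.7% and 15.0% of all peaks. They still leaned downward, with 57 risen and 237 fallen and a median difference of -0.31, against -0.04 over all peaks. The ETS word, common at start sites, was in 1.68% of risen, 1.4% of fallen and 3.21% of uncalled peaks. The AP-2 word was in 13.9% of risen and 6.31% of fallen peaks. The AP-1 word was at 7.73% and 7.60%, near its share of all peaks (7.75%). The TEAD word was at 9.12% and 7.66% (7.53% of all), somewhat more frequent in risen peaks. The GATA word was at 7.75% and 8.93% (7.71% of all), somewhat more frequent in fallen ones.

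**Figure D2:**
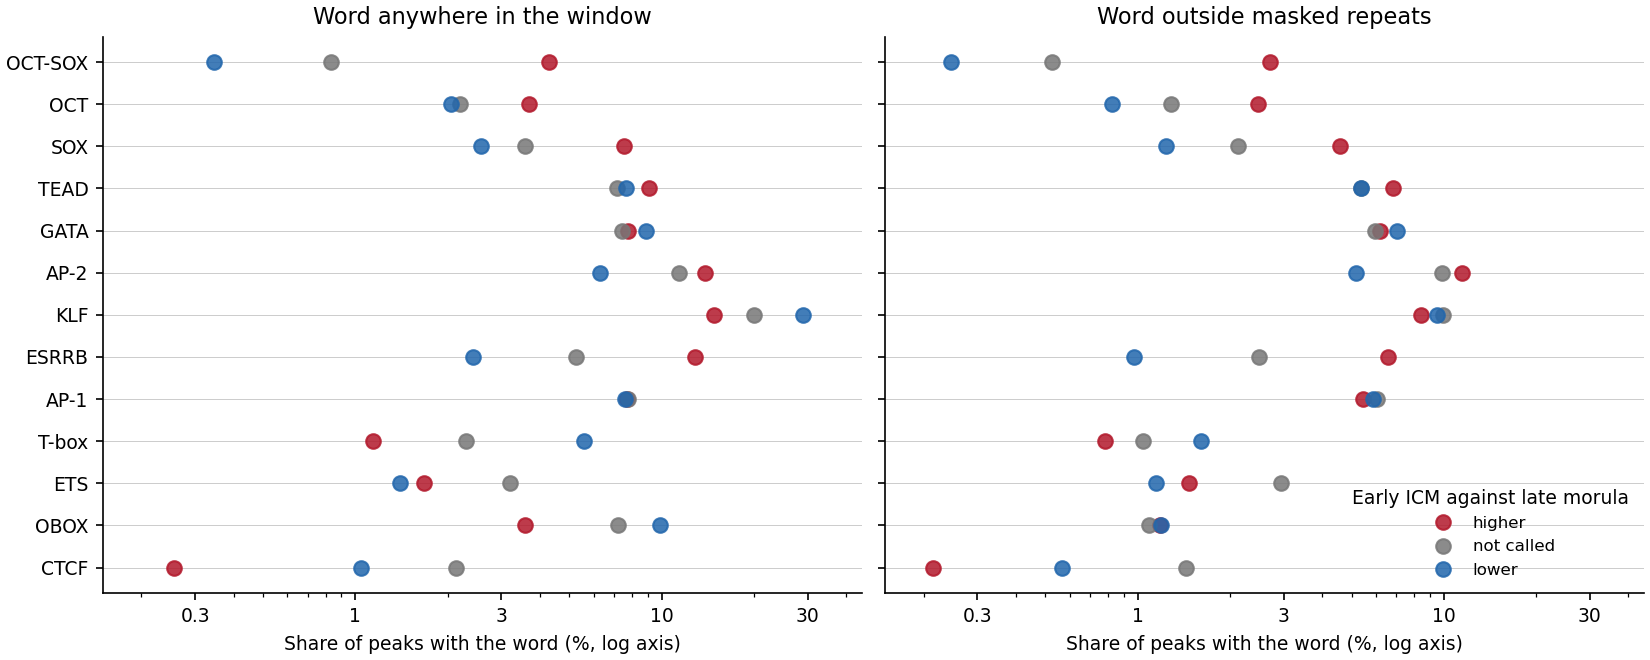
Share of peaks (log axis, %) that hold each of the 13 searched words, for peaks called higher (red), not called (gray) or lower (blue) in early ICM, with words counted anywhere in the window (left) or only outside bases masked as repeats (right). The OCT-SOX, SOX and ESRRB words were most frequent in higher peaks in both panels, whereas the KLF and OBOX words, at 28.9% and 9.90% of lower peaks on the left, were at 9.54% and 1.19% on the right, close to the other peaks. In windows with under 50% of bases masked, not drawn, they were in 20.0% and 4.89% of lower and 14.4% and 2.36% of higher peaks.

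Many, but not most, sites around pluripotency genes opened. In or within 10 kb of the 26 genes of the pluripotency list there were 312 peaks, of which 117 rose (37.5%) and 8 fell (2.56%), with a median difference of 0.64. Over all peaks 14.7% rose and 15.0% fell, and over the 106906 peaks near any protein-coding gene 13.2% and 14.8%. All 25 list genes with a peak had at least 1 that rose. The mean level of the list's peaks was 3.09 to 3.36 in the late morula libraries and 3.79 to 4.0 in the early ICM libraries. *Pecam1*, an adhesion molecule of the pluripotent lineage, had 12 risen and 0 fallen of 24 peaks, *Fgf4*, the FGF ligand of the epiblast, 8 and 0 of 14, and *Esrrb* 14 and 1 of 36. Others moved little, with 1 risen and 0 fallen of 8 at *Zfp42* and of 6 at *Tbx3*, 4 and 1 of 19 at *Tfcp2l1*, and 1 and 2 of 10 at *Lin28a*.

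The 3 core pluripotency genes all gained accessibility at or near their start sites between late morula and early ICM, from different levels. At the *Pou5f1* start site (chr17:35505888-35506087) the late morula libraries were at 4.29, 4.24 and 2.57 and the early ICM libraries at 5.46, 5.84, 5.60 and 5.01. The groups did not overlap, and the difference was 1.78 (SE 0.35, adjusted p = 5.3e-05). At the *Nanog* start site (chr6:122707420-122707619), within its proximal enhancer, late morulae were at 4.15, 3.83 and 3.97 and early ICMs at 5.08, 4.8, 5.64 and 5.01 (difference 1.15, SE 0.35, adjusted p = 0.0086). The peak 479 bp upstream of the *Sox2* start site rose by 1.65 (SE 0.43, adjusted p = 0.0019). Control groups outside the comparison did not all share these rises. In control E2.75 morulae the *Pou5f1*, *Nanog* and *Sox2* peaks had means of 4.88, 4.86 and 2.25. In control late ICMs (E4.5) they were at 4.87, 5.19 and 4.48, and in control early ICMs of the *Sox2* line at 4.97, 4.09 and 2.36.

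Among 9 marked pluripotency enhancers, each taken by the peak that overlaps it most, 7 rose, 0 fell and 2 were not called. Over all peaks 14.7% rose and 15.0% fell. SRR2, the enhancer downstream of *Sox2*, was nearly closed in late morula, at 0.46, 0.08 and 1.45, and reached 2.23, 3.22, 3.89 and 4.15 in early ICM (difference 2.71, SE 0.47, adjusted p = 3.9e-06). At the *Utf1* enhancer, 1931 bp downstream of the start site of this chromatin-associated pluripotency gene, the values were 3.60, 1.88 and 2.83 against 5.41, 5.41, 5.20 and 4.85 (difference 2.44, SE 0.41, adjusted p = 2.4e-06). The enhancers of *Prdm14* (2.73), *Klf4* (2.17, site B), *Pecam1* (2.16) and *Klf2* (1.42) rose too. Those not called were the enhancers with the highest late morula levels of the 9. The *Pou5f1* distal site CR4 (chr17:35503918-35504117) was at 6.01, 6.18 and 6.16 in late morula and at 6.40, 6.84, 6.81 and 6.52 in early ICM, without overlap but with a difference of 0.53 (SE 0.23, adjusted p = 0.064). It passed the threshold with the 7 libraries alone, with a replicate block and without early ICM replicate 1. The *Nanog* distal enhancer was at 6.58, 6.95 and 6.88 against 6.80, 6.79, 7.21 and 6.70 (difference 0.07, SE 0.19, adjusted p = 0.82), and its sign turned under quantile normalization. The groups did not overlap at 8 of the 9 enhancers, with 16.9% of all peaks as the background upward.

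**Figure D3:**
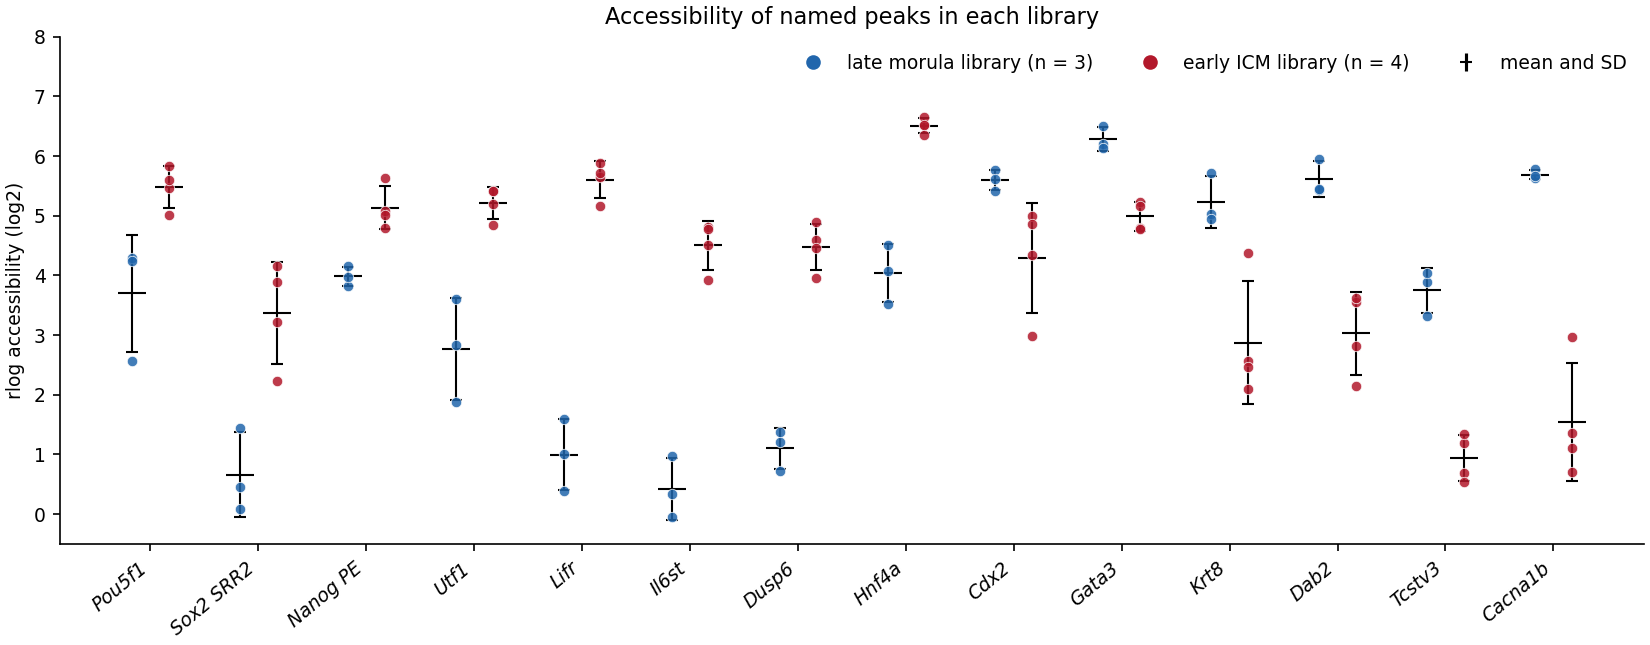
rlog accessibility (log2) of 14 named peaks in each late morula library (blue, n = 3) and early ICM library (red, n = 4), with the mean and SD of each group as black bars. The first 8 peaks were higher in every early ICM library than in every late morula library, and the last 6, from *Cdx2* to *Cacna1b*, were lower in every one.

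The trophectoderm list as a whole stood near the background. Of the 226 peaks of its 20 genes, 45 fell (19.9%, against 15.0% of all peaks) and 32 rose (14.2%, against 14.7%), with a median difference of -0.11. The mean level of its peaks overlapped between groups (3.40 to 3.48 in late morula, 3.23 to 3.48 in early ICM). The keratin genes *Krt8* and *Krt18*, whose filaments mark the trophectoderm epithelium, had 7 fallen of 14 and 4 fallen of 7 peaks, and none that rose. The peak 8507 bp downstream of the *Krt8* start site was at 5.72, 5.03 and 4.94 in late morula and at 2.56, 2.09, 4.38 and 2.46 in early ICM (difference -2.36, SE 0.43, adjusted p = 1.3e-05). One early ICM library was well above the other 3, yet below every late morula library. *Id2*, an early marker of outer cells, had 4 fallen of 7 peaks, the strongest at -2.67 (SE 0.44, adjusted p = 1.6e-06).

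The transcription factor genes of the trophectoderm were mixed. *Elf5* had 4 fallen and 2 risen of 16 peaks, and *Tfap2c* 4 risen and 1 fallen of 12. At the *Cdx2* start site (chr5:147307086-147307285) the libraries were at 5.76, 5.61 and 5.42 in late morula and 4.34, 4.99, 4.86 and 2.98 in early ICM, a difference of -1.30 (SE 0.34, adjusted p = 0.0018). It was the only fallen one of 10 *Cdx2* peaks, 2 of which rose. A *Gata3* intron peak fell by 1.29 (SE 0.27, adjusted p = 0.00014), from 6.21, 6.13 and 6.51 to 4.79, 5.23, 4.77 and 5.17, while the peak nearest the *Gata3* start site differed by -0.10 (SE 0.45, adjusted p = 0.89), and of all 14 *Gata3* peaks 2 rose and 2 fell. *Eomes* and *Gata2* had no called peak among 10 and 4. Several list members went the other way. A peak at the start site of *Hand1*, a giant cell factor, rose by 2.06 (SE 0.38, adjusted p = 1.4e-05), from 2.62 to 4.68. The *Hand1* peak had means of 4.2 in control E2.75 morulae and 3.93 in control late ICMs (E4.5), so it was not higher at the later of these stages. A peak of the water channel gene *Aqp3* rose by 1.98 (SE 0.27, adjusted p = 1.8e-08), and the tight junction gene *Cldn4* had 4 risen and 0 fallen of 11 peaks.

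Among Hippo pathway genes, 78 of 325 peaks of 19 genes rose (24.0%, against 14.7% of all peaks) and 37 fell (11.4%, against 15.0%). *Tead1*, a DNA-binding partner of Yap1, had 26 risen and 3 fallen of 56 peaks. *Yap1* itself had 8 and 1 of 25, and the Yap1 targets *Ccn2* and *Ccn1* had 6 and 0 of 6 and 3 and 0 of 6. Other members of the same kind did not share this, with 2 risen and 3 fallen of 12 at *Tead2*, 2 and 0 of 15 at *Tead3*, and 4 and 2 of 32 at *Wwtr1*, which encodes the Yap1 relative Taz. Downstream of the *Ccn2* start site, late morulae were at 1.53, 0.72 and 1.99 and early ICMs at 3.02, 4.64, 5.24 and 4.18 (difference 2.86, SE 0.43, adjusted p = 2.2e-07). *Nf2*, an activator of the Hippo kinases, had 10 fallen and 3 risen of 26. Its most clearly changed peak, in an intron, went from 6.26, 6.54 and 6.53 to 4.5, 4.4, 4.54 and 4.37 (difference -1.99, SE 0.31, adjusted p = 3.8e-07). At *Tead4*, needed for trophectoderm formation, 11 peaks rose and 3 fell of 31, while the start site did not differ (-0.08, SE 0.32, adjusted p = 0.87) and changed sign when 1 library was left out.

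The LIF receptor gene opened along almost its whole length. *Lifr*, the receptor for the cytokine LIF that sustains naive pluripotency through STAT3, had 18 risen peaks of 19 and none fallen, with differences from 0.86 to 4.60. The mean over its peaks was 0.92 to 1.22 in the late morula libraries and 3.19 to 3.55 in the early ICM libraries. Its strongest peak, 8573 bp upstream of the start site, was at 1.59, 0.39 and 1.01 against 5.65, 5.89, 5.71 and 5.16 (difference 4.60, SE 0.43, adjusted p = 2.5e-14). *Il6st*, which encodes the shared signalling subunit gp130, had 5 risen and 1 fallen of 11 peaks. Its strongest, 1425 bp upstream of its start site, was at 0.34, -0.05 and 0.98 against 4.82, 4.51, 3.92 and 4.78 (difference 4.09, SE 0.47, adjusted p = 5.6e-11). At both peaks every early ICM library was far above every late morula library. *Socs3*, a feedback inhibitor induced by STAT3, had 5 risen of 7 peaks. The ligand gene *Lif* and the kinase gene *Tyk2* had 3 fallen of 15 and 4 fallen of 13 and none risen. *Stat3* had 2 risen and 2 fallen of 16, and *Jak1* had 1 risen and 2 fallen of 16. In all, 39 of the 135 peaks of the list rose (28.9%, against 14.7% of all peaks) and 16 fell (11.9%, against 15.0%).

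Of the 185 peaks of 17 FGF and ERK pathway genes, 53 rose (28.6%, against 14.7% of all peaks) and 20 fell (10.8%, against 15.0%), in ICMs that had been held in a MEK inhibitor. Members were mixed, with 7 risen and 6 fallen of 32 at the ERK inhibitor gene *Spred2*, 3 and 3 of 18 at the receptor gene *Fgfr1*, 2 and 2 of 10 at *Spry4*, and none called at *Spred1*, *Dusp4* and *Fosl1*. An intronic *Dusp6* peak 110 bp past a start site, in a phosphatase gene that ERK induces, was at 1.21, 0.72 and 1.37 in late morula and 3.96, 4.59, 4.89 and 4.46 in early ICM (difference 3.37, SE 0.46, adjusted p = 1.4e-08). *Etv5*, an ETS factor gene induced by FGF, had 12 risen and 0 fallen of 20 peaks, *Spry2*, a feedback inhibitor, 5 and 0 of 8, and *Egr1* had a peak that rose by 1.73 (SE 0.31, adjusted p = 7.5e-06). The *Fgf4* start site region went from 1.70, 2.25 and 1.88 to 4.55, 5.60, 5.45 and 4.68 (difference 3.13, SE 0.47, adjusted p = 1.4e-07). *Fgfr2*, the receptor that trophectoderm and primitive endoderm share, had 5 risen and 5 fallen of 26 peaks in the span that most of its transcripts cover, a span chosen after seeing the data, and 27 risen and 38 fallen in the whole annotated gene. Every ICM library used here had the inhibitor, so its part in these values was not tested.

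Of 226 peaks of primitive endoderm genes, 50 rose (22.1%, against 14.7% of all peaks) and 27 fell (11.9%, against 15.0%), unevenly among the genes. *Col4a1*, a basement membrane collagen gene, had 12 risen and 0 fallen of 28 peaks, and both peaks of *Sox17* rose. The strongest *Hnf4a* peak by adjusted p, with SOX, TEAD and GATA words, went from 3.52, 4.51 and 4.08 to 6.52, 6.65, 6.52 and 6.36 (difference 2.47, SE 0.29, adjusted p = 1.1e-10). *Dab2*, an endocytic adaptor also used in trophectoderm, had 11 fallen and 0 risen of 21. The peak named for it, 828 bp from the start site of the neighbouring gene *C9*, went from 5.43, 5.95 and 5.45 to 2.81, 2.14, 3.55 and 3.62 (difference -2.58, SE 0.40, adjusted p = 3.8e-07). The *Gata6* start site was at 5.59 to 6.09 in late morula and 5.00 to 5.82 in early ICM, which overlap (difference -0.36, SE 0.27, adjusted p = 0.33), and an intron peak of *Gata6* fell by 1.83 (SE 0.38, adjusted p = 0.00011).

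In the Nodal and BMP list, 39 of 171 peaks rose (22.8%, against 14.7% of all peaks) and 24 fell (14.0%, near the 15.0% of all peaks). The ligand *Bmp4* had 4 risen of 5 peaks, the coreceptor *Tdgf1* 4 of 7, and the signal transducer *Smad3* 8 risen and 1 fallen of 21. The type I and type II activin receptors *Acvr1b* (5 fallen, 1 risen of 14) and *Acvr2b* (5 fallen, 0 risen of 9) went down. Among DNA methylation and chromatin regulators, 47 of 228 peaks rose (20.6%, against 14.7% of all peaks) and 34 fell (14.9%, near the 15.0% of all peaks). The 5-methylcytosine oxidase gene *Tet1* had 8 risen and 4 fallen of 31 peaks, 1 of which rose by 2.55 (SE 0.34, adjusted p = 6.3e-09). Its relative *Tet2* had 3 risen and 10 fallen of 28, and the de novo methyltransferase gene *Dnmt3a* 2 risen and 8 fallen of 29. *Sap30*, a subunit gene of the Sin3 deacetylase complex, had 3 risen and 1 fallen of 4 peaks, with differences from -2.0 to 3.12. The strongest rise went from 1.64, 2.34 and 2.33 to 4.83, 5.50, 4.95 and 5.64 (difference 3.12, SE 0.41, adjusted p = 3.0e-09).

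Among genes of the later, formative epiblast, 19 of 91 peaks rose (20.9%, against 14.7% of all peaks) and 14 fell (15.4%, against 15.0%), and the genes differed. At *Otx2*, a driver of the exit from naive pluripotency, 5 of 8 peaks rose and 1 fell, and the peak 132 bp upstream of a start site went from 1.06, 1.43 and 0.74 to 3.85, 3.99, 3.49 and 3.36 (difference 2.60, SE 0.46, adjusted p = 6.9e-06). The transcription factor genes *Zic2* and *Foxd3* had 4 risen of 5 and 4 risen of 7 peaks, with none fallen. *Dnmt3a*, also on this list, had 8 of the 14 fallen peaks, *Fgf5*, *T* and *Sall2* had 1 fallen and none risen each, and *Lef1* had none called of 10. Among cleavage-stage genes, 13 of 57 peaks rose (22.8%, against 14.7% of all peaks) and 4 fell (7.02%, against 15.0%). *Nr5a2*, whose product binds the ESRRB word, had 7 risen of 24. *Tcstv3* fell at a peak that went from 3.89, 3.32 and 4.04 to 0.69, 0.54, 1.19 and 1.35 (difference -2.81, SE 0.46, adjusted p = 1.7e-06), in a gene family with near-identical copies whose reads may be shared.

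The housekeeping and cumulus cell lists, taken for comparison, stayed under the background. Of 88 peaks of 12 housekeeping genes, 8 rose and 8 fell (9.09% each), and of 37 peaks of 10 cumulus cell genes, markers of the somatic cells that surround the oocyte, 2 rose and 2 fell (5.41% each). The mean level of the cumulus cell peaks was 2.46 to 2.62 in late morula and 2.40 to 2.57 in early ICM. Single sites near housekeeping genes did move. A *Gapdh* peak fell by 1.65 (SE 0.36, adjusted p = 0.0002) and an *Actb* peak 5087 bp upstream of its start site rose by 2.02 (SE 0.40, adjusted p = 5.6e-05).

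**Figure D4:**
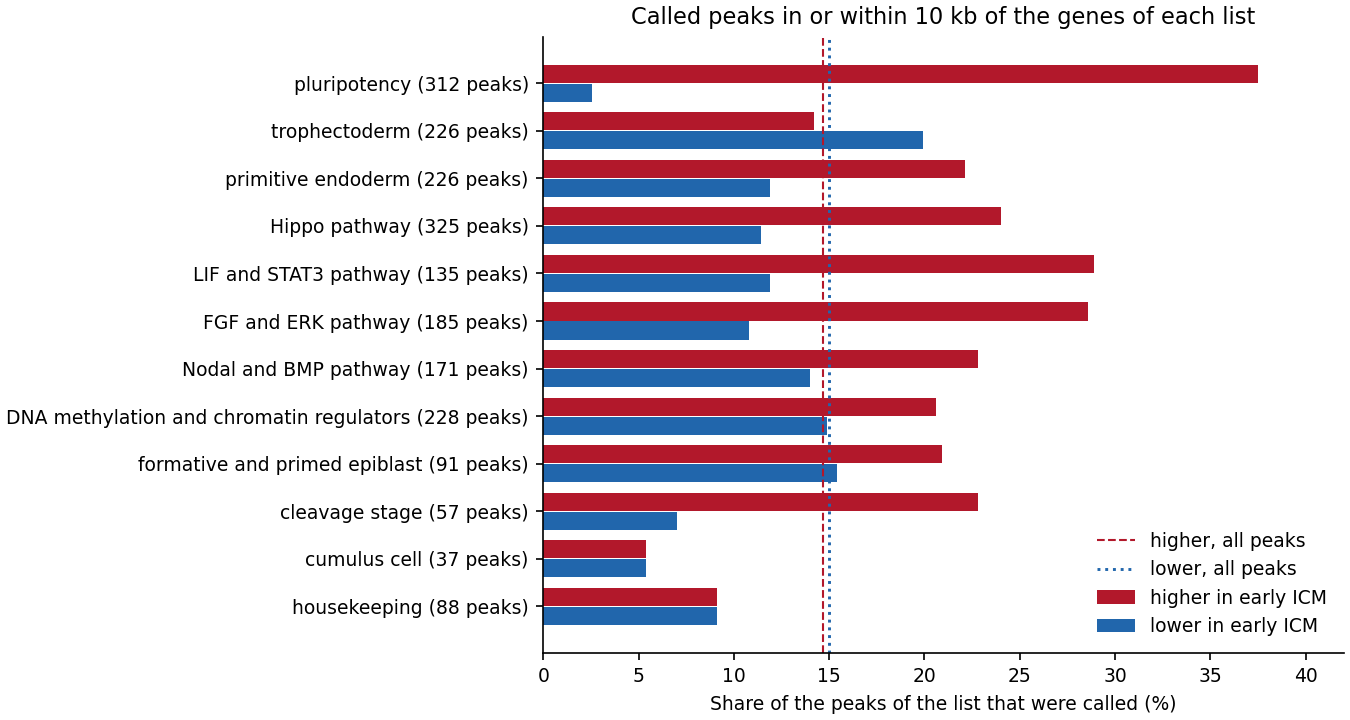
Share of the peaks in or within 10 kb of the genes of each list (number of peaks in brackets) that were called higher (red bars) or lower (blue bars) in early ICM, with the shares over all 152393 peaks as vertical lines (14.7% and 15.0%). Pluripotency genes had the largest share of higher peaks of the 12 lists (37.5%) and the smallest share of lower ones (2.56%), and the trophectoderm list (19.9%) the largest share of lower ones.

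The 5 largest increases lay outside the lists except for the *Lifr* peak. The largest, 68365 bp upstream of *Sox13* (chr1:133492642-133492841), went from 0.85, 0.39 and 1.76 to 5.23, 6.16, 5.44 and 5.72 (difference 4.64, SE 0.46, adjusted p = 9.4e-14). The others were nearest to the start sites of *B930094E09Rik* (4.61, SE 0.40), *Lifr*, *Cyp4a31* (4.59, SE 0.45) and *Spc24* (4.33, SE 0.42). The largest decrease, in an intron of the calcium channel gene *Cacna1b*, went from 5.78, 5.63 and 5.66 to 2.97, 0.71, 1.36 and 1.11 (difference -4.15, SE 0.44, adjusted p = 3.1e-12). It was followed by peaks nearest to *Ncan* (-4.12, SE 0.45), *Fbxl7* (-3.92, SE 0.40), *Arhgef26* (-3.76, SE 0.46) and *Mier2* (-3.70, SE 0.48). The *Ncan* window had 94.0% of its bases masked as repeats.

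Some genes changed in 1 direction along their length, and others in both. Of 18369 protein-coding genes with a peak, 8090 had a risen peak, 9671 a fallen one and 4378 both, while 279 had at least 5 called peaks that all rose and 290 at least 5 that all fell. By number of risen peaks the leading genes were *Rbpj*, the DNA-binding effector of Notch signalling (34 risen and 1 fallen of 52 peaks), *Mob3b* (30 and 3 of 54), *Arid5b* (28 and 0 of 58) and *Tead1*. By fallen peaks they were *Myo5b*, a motor of apical vesicle transport (22 fallen and 1 risen of 44), *Asap2* (21 and 0 of 41), *Dapk1* (19 and 0 of 29) and *Pard3*, an organiser of apical polarity (16 and 9 of 71). The annotated readthrough gene *Gm20388* headed both counts, with 66 risen and 66 fallen of 542 peaks, because it spans 4434.9 kb and many other genes. Most of these are long genes, and the counts are not scaled for length.

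The stage difference was also read in libraries of other groups, whose levels did not enter the difference between late morula and early ICM, although they shared in the rlog scaling and in the estimate of the spread. Control late ICMs (E4.5, 4 libraries, *Pou5f1* line, also kept in PD0325901 from E2.5) were set against whole control E2.75 morulae (3 libraries), where 21.9% of all peaks rose and 18.7% fell. Of the 22384 peaks called higher, 64.3% rose and 1.18% fell there, and of the 22839 called lower 49.5% fell and 1.73% rose. Control early ICMs of the *Sox2* line, unlabeled embryos of *Sox2* flox/flox; *Zp3*-Cre mothers and *Sox2* +/EGFP fathers (4 libraries), against the same morulae showed 13.6% of all peaks risen and 14.3% fallen. Of the peaks called higher 42.5% rose, and of those called lower 38.8% fell. The 2 readings share the E2.75 morulae, so they are not independent of each other, and the *Sox2* line differs from the morulae in its maternal deletion as well.

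At E2.75 the peaks later called higher had a mean level of 2.32 ± 0.060 (SD, n = 3), and those called lower 2.86 ± 0.13. In late ICM they were at 3.65 ± 0.14 and 1.81 ± 0.075 (SD, n = 4), and in early ICMs of the *Sox2* line at 3.26 ± 0.13 and 2.00 ± 0.060. The values of 1.96 and 3.35 in late morula and 3.65 and 1.74 in early ICM chose the peaks and are a description. Outside the libraries that chose the peaks, the first set was above the second in every control ICM library of both lines and below it in every control E2.75 morula library.

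A part of the change was also present in embryos without Oct4. In maternal-zygotic *Pou5f1* knockouts, the mKO2-labelled embryos of the same matings (3 late morula and 4 early ICM libraries, none shared with the controls), 8.33% of all peaks rose and 10.2% fell between the same stages. Of the peaks called higher in controls 34.3% rose and 0.0938% fell there, with a median difference of 0.85, and of those called lower 38.5% fell and 0.0744% rose, with a median of -1.01. Since the control libraries chose the peaks, a smaller median in the knockouts is partly set by the choice. Tested directly over all peaks, the stage change without Oct4 minus that in controls was positive in 84 peaks (0.0551%) and negative in 444 (0.291%) at an adjusted p under 0.05. That test uses the control libraries that made the calls, so its calls are not set against theirs.

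The share of peaks that also opened without Oct4 varied with the words they held, a difference that was not tested. The 959 risen peaks with an OCT-SOX word had a median difference of 0.55 in the knockouts and 16.4% of them rose there, against 0.86 and 35.1% of the 21425 without it. Risen peaks with the GATA word (1.12, 51.5%) or the TEAD word (1.14, 50.7%) were above those without (0.83, 32.9% and 0.82, 32.7%). Those with the SOX word (0.93, 42.3%) were also above those without it (0.84, 33.7%). Those with the OCT word (0.63, 22.4%) were below (0.85, 34.8%). Among peaks that fell, those with the OBOX word had a median of -1.29 in the knockouts and 54.6% fell there, against -0.98 and 36.7% of those without.

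Single peaks showed both patterns. At the *Utf1* enhancer the knockout means were 1.7 in late morula and 1.5 in early ICM, and the change differed from that in controls by -2.65 (adjusted p = 0.015). At the *Il6st* peak they were 0.27 and 0.79, and the change differed by -3.57 (adjusted p = 0.0024). At the *Lifr* peak the knockouts still went from 2.09 to 4.98 (difference 2.90, adjusted p = 6.1e-07), and the change differed by -1.71 (adjusted p = 0.24). The *Utf1*, *Il6st* and *Lifr* peaks were named at least in part for their change in the same control libraries, which enlarges such differences. The *Dusp6* peak rose by 4.07 (adjusted p = 1.8e-10) and the strongest *Esrrb* peak by 3.41 (adjusted p = 1.1e-10) without Oct4, although of the 36 *Esrrb* peaks only 3 rose and 1 fell there, against 14 and 1 in controls. The *Cacna1b* peak fell by 3.83 (adjusted p = 2.8e-10). *Tead1*, with 26 risen peaks in controls, had 14 of 56 in the knockouts, *Lifr* 10 of 19, *Col4a1* 10 of 28 and *Pecam1* 3 of 24, beside 8.33% of all peaks.

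**Figure D5:**
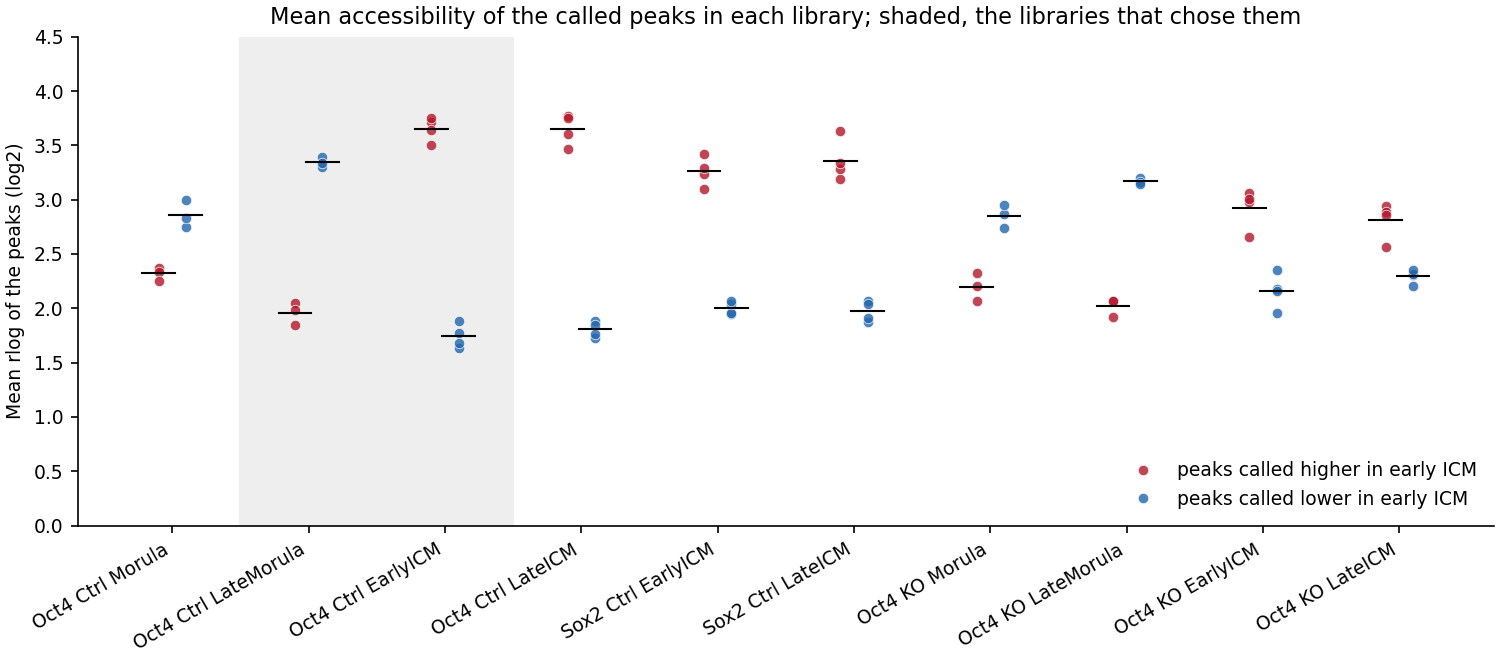
Mean rlog (log2) of the peaks called higher (red) and lower (blue) in early ICM, 1 point per library with group means as black lines, for controls of both lines and for *Pou5f1* knockouts. The shaded libraries chose the peaks. In control ICM libraries outside the shading the red points lie at 3.10 to 3.77 and the blue ones at 1.72 to 2.07, and in the knockout early ICMs at 2.66 to 3.06 and 1.96 to 2.35.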

How the data were processed

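ATAC-seq of pooled mouse embryos was analysed in 7 libraries, 3 late morula and 4 early ICM, within a table of 44. Per the methods and labels, the authors aligned trimmed reads to mm10 (Bowtie2), dropped duplicates (Picard), shifted reads for the Tn5 offset, called peaks with MACS2, merged summits into 200 bp windows and counted insertions. The deposited values are on a log2 scale, the rlog that the authors made of these counts with DESeq2, in which replicates stay separate and low counts are shrunken. The deposited table of group means was not used. Depth and counting precision are unknown, since no counts were given.

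Here limma 3.58.1 (R 4.3.3) fitted 12 group means to all 44 libraries (eBayes with trend, 32 residual degrees of freedom, median residual SD 0.589), and p-values were Benjamini-Hochberg adjusted over all peaks, with no filter. The fit was tested on simulated data. Gene names and start sites came from GENCODE vM21 on GRCm38, and sequences from RefSeq's GRCm38.p6, whose lower-case bases were taken as masked repeats. A peak belonged to a gene when its centre lay in the gene or within 10 kb. For genes over 1 Mb the span that most transcripts cover was used, a rule chosen after seeing the data, as were the counts outside repeats.

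The comparison, the gene lists and the words were chosen with earlier results of these data known. Named peaks were the 9 marked enhancers, whose positions the authors list and which are no independent sample, the 5 largest increases and 5 largest decreases without overlap, up to 6 genes per list by smallest adjusted p, 7 lineage factors with their start sites, and the 5 genes with most called peaks in each direction. Of these 104 peaks the text names those that describe each group.

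Replicate numbers did not pair the control late morula and early ICM libraries: deviations from the group mean of same-numbered libraries correlated at -0.02 to 0.04. Control and knockout libraries of the same number were treated as unpaired, and a pairing between them was not tested.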

Additional observations from a re-analysis of the deposited data

Results flagged for a closer look

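In 3 of the 104 early ICM groups of named peaks, 1 library stood far from the other 3, while chance marks about 1 in 20 groups. At the *Spred2* peak it was at 1.89, below the others, at the *Dnmt3a* peak at 0.39 and at the *Cyp19a1* peak at 2.48, both above the others.

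At 7 named peaks the stage change without Oct4 differed from that in controls (limma, adjusted over all peaks). The change without Oct4 minus that in controls was -3.64 at the *B930094E09Rik* peak (adjusted p = 9.9e-05), which was at 6.19 in control and 2.60 in knockout early ICM. The same difference was -3.57 at *Il6st* (adjusted p = 0.0024), -2.71 at *Arid5b* (adjusted p = 0.031), -2.65 at *Utf1* (adjusted p = 0.015), -2.54 at *Tead4* (adjusted p = 0.036) and -2.53 at *Cyp4a31* (adjusted p = 0.043). At the *Fbxl7* peak, which fell in controls, it was 2.31 (adjusted p = 0.036). Several of these peaks were named for a large change in the same control libraries, which enlarges such differences.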

How the results depend on the processing

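The counts of called peaks kept within 1.5 times of 22384 higher and 22839 lower under all alternatives but one. When peaks with a mean rlog under the median were left out, 13385 were higher and 9557 lower, because fewer peaks were tested. The 7 libraries alone gave 24921 and 25091, quantile normalization 23581 and 22946, centring within GC bins 24123 and 19892, and a difference of at least 1 as a further condition 21158 and 22341. Leaving out 1 library at a time gave 15846 to 21770 higher and 15800 to 21705 lower peaks. Replicate numbers did not pair the control late morula and early ICM libraries, and a replicate block gave 22730 and 22716. The separation ratio was 2.26 to 2.47 with 1 library left out, where the smallest p that the divisions allow (exact permutation test) is 0.067 or 0.1.

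Of the 104 named peaks, 3 changed sign, all of them not called. The *Nanog* distal enhancer was at -0.17 under quantile normalization and at -0.04 to 0.14 with 1 library left out, the *Gata3* start-site peak at -0.33 to 0.18, and the *Tead4* start-site peak at -0.33 to 0.19. *Pou5f1* CR4 passed the threshold with the 7 libraries alone (0.53), with the replicate block (0.57) and without early ICM replicate 1 (0.61). Lost calls concerned 2 cumulus cell peaks, near *Amh* and *Cyp19a1*. With 1 more mismatch the OCT-SOX word was in 14.7% of higher and 4.4% of lower peaks. Using the whole annotated gene, a setting chosen after seeing the data, *Fgfr2* had 27 higher and 38 lower peaks. Without counts, the depth behind weak peaks is unknown.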
